A study of Mus musculus with 3 samples.

Results

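Broad unmethylated valleys are long stretches of the mESC genome in which almost no CpG cytosine reads as 5mC. They were chosen by their TAPSβ levels: the 19 autosomes were divided into 1-kb bins, a bin counted as low when its pooled TAPSβ level was under 15% with 4 or more cytosines and 40 or more TAPSβ reads, and a valley was a run of 5 or more low bins, in which at most 1 bin with too few data could be passed over between low bins. Of 33420 runs of low bins of any length, 883 were valleys. TAPSβ reads 5mC and CAPS reads 5hmC, each with the rarer 5fC and 5caC, and PS reads 5fC and 5caC. In each case the modified base reads as a C-to-T change. All 3 methods were applied to gDNA of E14 mESCs, an established mouse line that grew on gelatin in medium with serum and LIF and with the inhibitors PD0325901 and CHIR99021, and no other treatment or genotype was compared. Each method had 1 library, so there were no replicates. The intervals given here are exact (Clopper-Pearson) binomial 95% intervals, or log-scale intervals from the numbers of modified reads for ratios. They cover counting error only and treat the cytosines of 1 read as independent.

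In mammalian cells most CpGs carry 5mC, and the regions that escape it are mainly CpG islands at gene starts, kept free of DNMT activity by bound factors and by active or Polycomb-marked chromatin. Valleys are the broad form of such regions, known in embryonic stem cells for lying over genes of developmental regulators and over large regulatory elements. TET enzymes oxidise 5mC to 5hmC and on to 5fC and 5caC, and in embryonic stem cells 5hmC is known to be frequent at the edges of unmethylated regions and at enhancers.

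The 3 libraries held between 377288829 and 511365019 base calls at CpG cytosines, with a median of 9 to 13 reads per listed cytosine, and their levels over all of these were 57.5% in TAPSβ, 3.14% in CAPS and 0.246% in PS. Of 5 genes that undifferentiated mESCs express, Pou5f1, Sox2 and Zfp42 started in bins with TAPSβ levels of 0.0644%, 0.216% and 0.634%, Nanog in a bin at 5.56% and Esrrb in a bin at 48.5%. The starts of the lineage genes Gata6 and T lay in bins at 1.52% and 4.09%. Among the genes named here, a low level at a start thus did not set apart those known to be expressed. Expression was not measured. These starts are the 5′ ends of the gene records, and a shorter Esrrb transcript starts elsewhere, within a valley.

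Windows of 240 bases are shown from inside and outside single valleys, on the plus strand of NCBIM37 (mm9), with each CpG in capitals. The first group holds, for the 3 longest valleys, the window with the most CpGs outside any UTR. The second holds, for the 3 valleys with the highest CAPS level outside, the window within 5 kb of the border with the most modified CAPS reads, so these are extremes and not typical borders.
Myo10 valley, intron of Myo10, chr15:25704504-25704743: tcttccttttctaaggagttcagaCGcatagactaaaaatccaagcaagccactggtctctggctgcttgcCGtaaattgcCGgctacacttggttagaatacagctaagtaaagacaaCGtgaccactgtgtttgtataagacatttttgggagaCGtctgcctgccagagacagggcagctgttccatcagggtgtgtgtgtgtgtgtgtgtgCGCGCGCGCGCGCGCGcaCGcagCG
Etv5 valley, inside the Etv5 gene and outside its exons, chr16:22409495-22409734: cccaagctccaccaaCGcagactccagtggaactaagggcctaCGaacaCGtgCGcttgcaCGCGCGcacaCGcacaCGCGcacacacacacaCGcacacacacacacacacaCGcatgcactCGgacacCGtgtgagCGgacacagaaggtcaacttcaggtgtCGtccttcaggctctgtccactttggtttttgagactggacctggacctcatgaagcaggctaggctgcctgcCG
Zfp42 valley, overlapping an exon of Zfp42, chr8:44381023-44381262: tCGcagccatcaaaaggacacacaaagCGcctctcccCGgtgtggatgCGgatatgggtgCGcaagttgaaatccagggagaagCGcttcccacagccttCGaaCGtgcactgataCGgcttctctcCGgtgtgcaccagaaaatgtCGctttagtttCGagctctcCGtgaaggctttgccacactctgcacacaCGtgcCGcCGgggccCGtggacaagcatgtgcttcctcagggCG
Cdk6 valley, outside, no annotated gene, chr5:3335100-3335339: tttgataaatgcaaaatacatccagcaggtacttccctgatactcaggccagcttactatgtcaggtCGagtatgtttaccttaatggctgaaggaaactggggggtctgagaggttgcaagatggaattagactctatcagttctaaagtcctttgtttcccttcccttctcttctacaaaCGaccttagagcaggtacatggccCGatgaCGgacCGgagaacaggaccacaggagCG
Trim71 valley, outside, inside Trim71 and outside its exons, chr9:114454090-114454329: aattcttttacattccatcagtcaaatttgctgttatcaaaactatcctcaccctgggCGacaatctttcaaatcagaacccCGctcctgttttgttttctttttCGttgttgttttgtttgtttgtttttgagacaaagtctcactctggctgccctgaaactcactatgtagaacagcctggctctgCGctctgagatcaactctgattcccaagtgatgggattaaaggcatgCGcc
Rbpms2 valley, outside, inside Rbpms2 and outside its exons, chr9:65492849-65493088: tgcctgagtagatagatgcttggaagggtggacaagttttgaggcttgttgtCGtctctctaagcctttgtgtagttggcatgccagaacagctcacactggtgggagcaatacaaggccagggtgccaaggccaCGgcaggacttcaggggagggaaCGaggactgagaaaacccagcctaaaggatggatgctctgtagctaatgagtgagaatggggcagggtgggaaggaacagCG
The 3 windows inside held 15, 17 and 18 CpGs, with TAPSβ levels of 5.603%, 0.407% and 5.27% and CAPS levels of 1.38%, 1.22% and 2.28%. The Myo10 window holds a run of alternating C and G near its end, and it had a PS level of 4.05% (2.33 to 6.49%). The 3 windows outside held 6, 5 and 4 CpGs. Their TAPSβ levels were 53.5%, 37.8% and 45.3% and their CAPS levels were 18.9%, 17.6% and 21.4%, where all bins 1 to 5 kb outside had 5.06%. The Cdk6 window lay 4.66 kb from its border. PS was 15.1% in the Cdk6 window, 0.917% in the Trim71 window and 0% of 67 calls in the Rbpms2 window.

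The valleys together covered 5.471 Mb and 339469 listed cytosines, 0.879% of those on autosomes. Low bins made up 2.58% of the 2159870 bins with enough data, and 9.77% of the low bins lay in valleys. The lengths ran from 5 to 27 kb with a median of 6 kb. Runs of exactly 5 low bins numbered 446, runs of 6 numbered 208 and runs of 10 or more numbered 48, against 997 runs of 4 low bins just short of the rule. Inside the valleys 66.6% of bins were under 5% in TAPSβ and the median bin was at 2.27%, while 140 valley bins lay between 14 and 15%. The first bin outside a border had a median TAPSβ level of 35.4%, and in 231 of 1741 cases it lay between 15 and 20%. Chromosome 16 had the fewest valleys, 19, and chromosome 11 the most, 88.

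**Figure D1:**
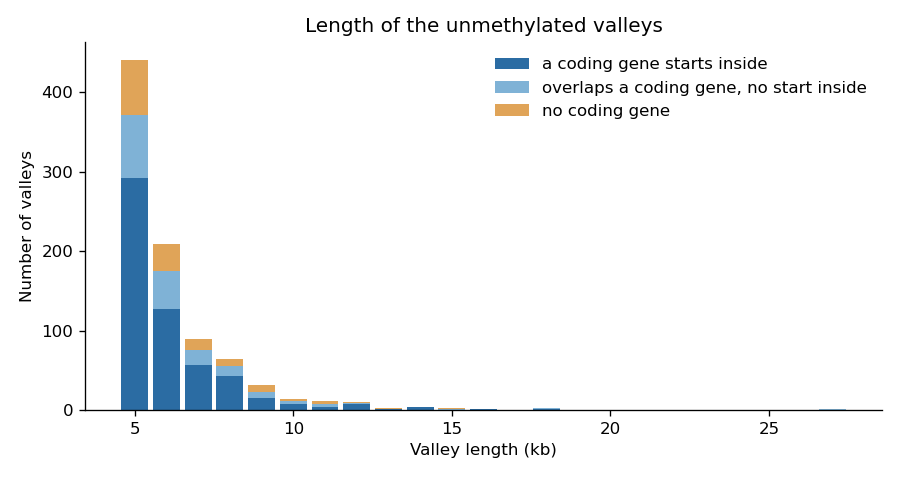
Number of valleys (vertical axis) by length in kb (horizontal axis), with colours for valleys in which a coding gene starts, valleys that overlap a coding gene without a start inside, and valleys without a coding gene. Most of the 883 valleys are 5 to 7 kb long, and 1 valley reaches 27 kb.

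The longest valley, 27 kb, lay within Myo10, the gene of an unconventional myosin of filopodia, at chr15:25680001-25707000. A shorter Myo10 transcript starts in it, and the nearest start of a coding gene record, that of Fam134b, was 66.0 kb away. Its bins had TAPSβ levels from 0.161% to 11.4% with a median of 2.67%, and between 4 and 28 CpGs each. A pair of valleys of 18 kb followed. The one at chr16:22397001-22415000 overlapped Etv5, an ETS-family transcription factor, and held the start of a shorter transcript. The one at chr8:44377001-44395000 held the start of Zfp42 (Rex1), a zinc-finger marker of undifferentiated mESCs. Its TAPSβ levels ran up to 13.4% in a bin, and the bin after it stood at 15.0%, just outside the limit.

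A 16-kb valley at chr9:78211001-78227000 held the starts of Dppa5a, an RNA-binding protein abundant in pluripotent cells, and Ooep, an oocyte protein. Of the valleys of 15 kb, 1 held the start of the nuclear long non-coding RNA Malat1 on chromosome 19, 1 lay in Esrrb, a nuclear receptor of the naive pluripotency network, and 1 on chromosome 13 lay 239.9 kb from any coding start, the nearest being that of Enc1. The gene record of Esrrb starts 108 kb from its valley, in a bin with a TAPSβ level of 48.5%, but a shorter Esrrb transcript starts within the valley, and another valley of 11 kb lay in the same gene. The 4 valleys of 14 kb held the starts of Tdh, the threonine dehydrogenase that mESCs depend on, of Ssr2, a translocon subunit, of Hnrpdl and Enoph1, an RNA-binding protein and a methionine salvage enzyme, and of Mybl2, a cell-cycle transcription factor. In all 11 of these longest valleys CAPS was higher outside than inside, as in 876 of all 883 valleys. CAPS inside was lowest in the Ssr2 valley, 1.26% (0.932 to 1.66%), and highest in the gene-free valley of chromosome 13, 2.86% (2.36 to 3.44%). In the Myo10 valley it was 1.78% (1.52 to 2.08%) against 7.56% (6.15 to 9.18%) outside.

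Longer valleys had fewer CpGs per kb. Valleys of 5 kb had a median of 31.8 CpGs per kb, those of 6 or 7 kb 29.8, those of 8 or 9 kb 24.7 and those of 10 kb or more 19.2. Over all valleys the density ran from 5.2 to 83 CpGs per kb with a median of 30.2. The mean over valley bins was 31.4 CpGs per kb, against 38.9 in runs of 3 or 4 low bins, 12.5 in the 5 kb outside valleys and 8.95 over all bins with enough data. The 157 valleys with under 15 CpGs per kb seldom held the start of a coding gene record, with 17 of them (10.8%) holding one. Of the 215 valleys with 45 CpGs per kb or more, 185 did (86.0%). Starts of other genes and of shorter transcripts are not in these counts. CpG-rich gene starts and CpG-poor stretches were thus both among the valleys.

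A coding gene started in 561 of the 883 valleys (63.5%). Another 178 overlapped a coding gene without a start inside, and 144 overlapped none. Counting the start of any transcript of a coding gene raised the number from 561 to 633. The valleys without a coding gene had a median distance of 22.2 kb to the nearest coding start. In these valleys and the others, 656 of 21418 autosomal coding genes had their start, which is 3.06% of them and the background for the gene lists. In comparison, 56.6% of coding genes had their start in a low bin. Bins that touch a coding gene were 67.4% of valley bins, against 42.0% of all bins with enough data. The share was 70.4% in runs of 3 or 4 low bins and 63.8% in runs of 1 or 2, so it was not particular to valleys. Of the 13235 other autosomal genes 239 started in a valley (1.81%). By type the share was 6.33% of 1232 long intergenic RNA genes, 4.32% of 1458 snoRNA genes, which can lie several to a valley, 2.25% of 1468 miRNA genes, 2.13% of 2437 processed transcripts and 0.148% of 4055 pseudogenes.

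In the 476 valleys with 1 coding start, the valley reached a median of 3.76 kb downstream of the start and 1.84 kb upstream of it, and in 53 of them the gene ended inside the valley. It reached farther downstream than upstream in 357 of them. The start is the 5′ end of the gene record, and starts of shorter transcripts farther downstream were not used here. Of the 75 valleys with 2 coding starts, 43 had the start of the minus-strand gene before that of the plus-strand gene on the chromosome, and 24 had the reverse order, which includes pairs whose 5′ ends overlap. In all, 96 coding genes lay wholly inside a valley.

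Pluripotency genes had the highest share of starts in valleys of the 17 gene lists. They were 16 of 24, or 66.7%, against the 3.06% of all coding genes. The other gene of this list of 25, Tfcp2l1, was not matched by symbol and is not in this count, but under the older symbol Tcfcp2l1 it started in a valley of 6 kb on chromosome 1. Besides Zfp42 and Dppa5a these were Pou5f1 and Sox2 with valleys of 12 kb, Nanog with 10 kb, Klf2 with 9 kb, Mycn, Sall4 and Tbx3 with 8 kb, Myc with 7 kb, Fbxo15, Lin28a and Tdgf1 with 6 kb, and Klf4, Prdm14 and Tcl1 with 5 kb. Pou5f1, Sox2 and Nanog are the core transcription factors of pluripotency. Klf4, Klf2 and Tbx3 belong to the naive network, Lin28a binds RNA and blocks let-7 maturation, and Tdgf1 is a Nodal co-receptor. The 8 measured members without a start in a valley were Klf5, Esrrb, Nr5a2, Dppa2, Dppa3, Dppa4, Utf1 and Stat3. Of these, Esrrb and Nr5a2 had another transcript that starts in a valley, that of Nr5a2 in one of 8 kb.

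The valleys of these genes differed in CpG density. The Klf4 valley had 62.6 CpGs per kb, the Sox2 valley 34.3, and the Nanog and Pou5f1 valleys 14.7 and 14.8. CAPS inside was 0.798% (0.553 to 1.11%) in the Klf4 valley, 1.10% (0.889 to 1.36%) in the Sox2 valley, 1.48% (1.11 to 1.93%) in the Pou5f1 valley and 1.70% (1.29 to 2.20%) in the Nanog valley, so these 4 overlapped in part. Outside, the levels were 5.76% (4.67 to 7.01%) at Klf4, 5.80% (5.09 to 6.57%) at Sox2, 4.41% (3.58 to 5.37%) at Pou5f1 and 6.93% (5.99 to 7.96%) at Nanog, each above the interval inside. The same held in 89.9% of all valleys. A gene-free valley of 11 kb lay 105 kb from the Sox2 start, in the region downstream of Sox2 that is known for a distal enhancer cluster of this gene. Its CAPS level was 3.07% (2.46 to 3.78%) inside, above the interval of the Sox2 valley itself, and 7.87% outside. It had a TAPSβ level of 4.44% and 12.8 CpGs per kb, against 1.78% and 34.3 in the Sox2 valley. CAPS was 2.60% inside all valleys with under 15 CpGs per kb and 2.13% inside all those without a coding gene.

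Of the 16 other lists, 14 were above the background share, and differences between lists were not tested. In each of these 14 lists, 60% to 94.1% of the genes started in a low bin of any kind, against 56.6% of all coding genes. A single gene put some short lists above the 3.06%, as with 1 of 9 paired box genes and 1 of 15 DNA methylation and demethylation genes. Sox2, Sall4 and Tbx3 were counted in their family lists and among the pluripotency genes. Among developmental regulators, Zic, Gli and Sall genes had 6 of 14, with Gli2 and Sall3 in valleys of 9 kb, and homeobox genes outside the Hox clusters had 24 of 110, with Meis2 in one of 9 kb and Lbx1 in one of 8 kb. Sox genes had 3 of 17, forkhead genes 5 of 40, paired box genes 1 of 9, which was Pax2, T-box and Gata genes 2 of 20, and Hox genes 3 of 39, namely Hoxb7, Hoxb8 and Hoxd11. Of 46 developmental bHLH genes only Hes1, a Notch effector, started in a valley, and that valley was 12 kb long. Signalling ligands had 9 of 65, among them Fgf4 and Nodal with 6 kb each, and secreted antagonists had 2 of 16, Nog and Fst.

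Housekeeping genes were also present. Of the cytosolic ribosomal protein genes 19 of 78 started in valleys, with Rpl23 and Rps15a in those of 8 kb, and of the glycolysis genes 5 of 18, with Eno1 in one of 9 kb and Gapdh and Pkm2 in those of 7 kb. Histone genes had 13 of 67, clustered in 5 valleys, so these are not separate regions. Polycomb subunit genes had 6 of 27, with Phc1 in a valley of 9 kb and Jarid2 in one of 8 kb. Among 15 genes of DNA methylation and demethylation, Tet1, a 5mC dioxygenase, started in a valley of 9 kb. None of 1081 olfactory receptor genes did, and 3 of them started in a low bin of any kind. No enrichment was tested for any list.

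**Figure D2:**
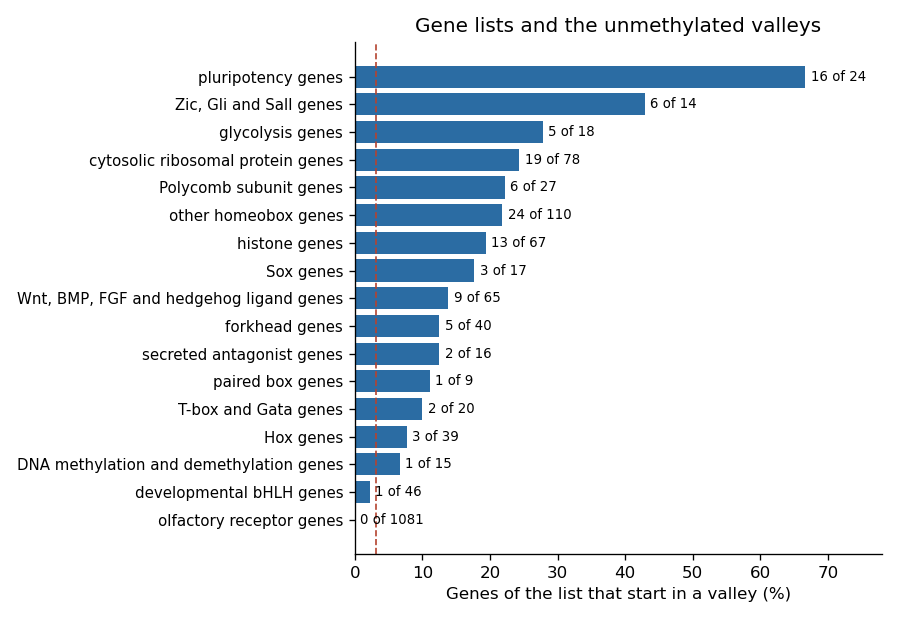
Share of each list's coding genes whose start lies in a valley (horizontal axis, %), with the numbers of genes beside the bars and a dashed line at the 3.06% of all autosomal coding genes. The bar of the pluripotency genes, 16 of 24, is the longest, and olfactory receptor genes are at 0 of 1081.

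The CAPS level inside the valleys, pooled over 2936491 base calls, was 1.52% (1.51 to 1.54%). Over all autosomal bins it was 3.15%. In the outermost bin of the valleys it was 2.35% (2.32 to 2.39%), in the second bin 1.23% (1.21 to 1.25%) and in bins 3 or more from a border 1.26% (1.24 to 1.28%), so CAPS was highest next to the border. TAPSβ, which chose the bins, was 4.97% in the outermost bins and 1.83% in the interior. Single valleys ran from 0.499% to 6.72% in CAPS with a median of 1.49%. In 726 of the 883 valleys (82.2%) the interval lay above 0.72%, the rate taken for unmodified cytosines in CAPS, against 67.5% of all runs of low bins, and in none below it, against 0.129%. Runs of 1 to 4 low bins had a median of 548 CAPS calls and valleys 3109, and the part of this depth in the shares was not tested.

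CAPS was higher 1 to 5 kb outside the borders, at 5.06% (5.03 to 5.09%). The ratio of outside to inside was 3.32 (3.28 to 3.36). It was above 1 on all 19 autosomes, from 2.55 on chromosome 13 to 3.88 on chromosome 3. No CAPS level or ratio here was corrected for the 0.72% rate taken for unmodified cytosines. The level was highest in the first kb outside, 5.65% (5.57 to 5.72%), fell to 5.25% in the second and 4.77% in the third, and stayed between 4.39 and 4.85% out to 20 kb. TAPSβ in the same bins rose from 35.4% in the first kb to 47.6% at 20 kb and did not reach the 57.4% of all autosomal bins. By the valley rule no first bin outside could be a low bin, whereas bins farther out could. The 809 low bins among those 1 to 5 kb outside had a CAPS level of 2.54% (2.48 to 2.59%). The part of the rule in the fall of CAPS after the first kb was not tested.

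**Figure D3:**
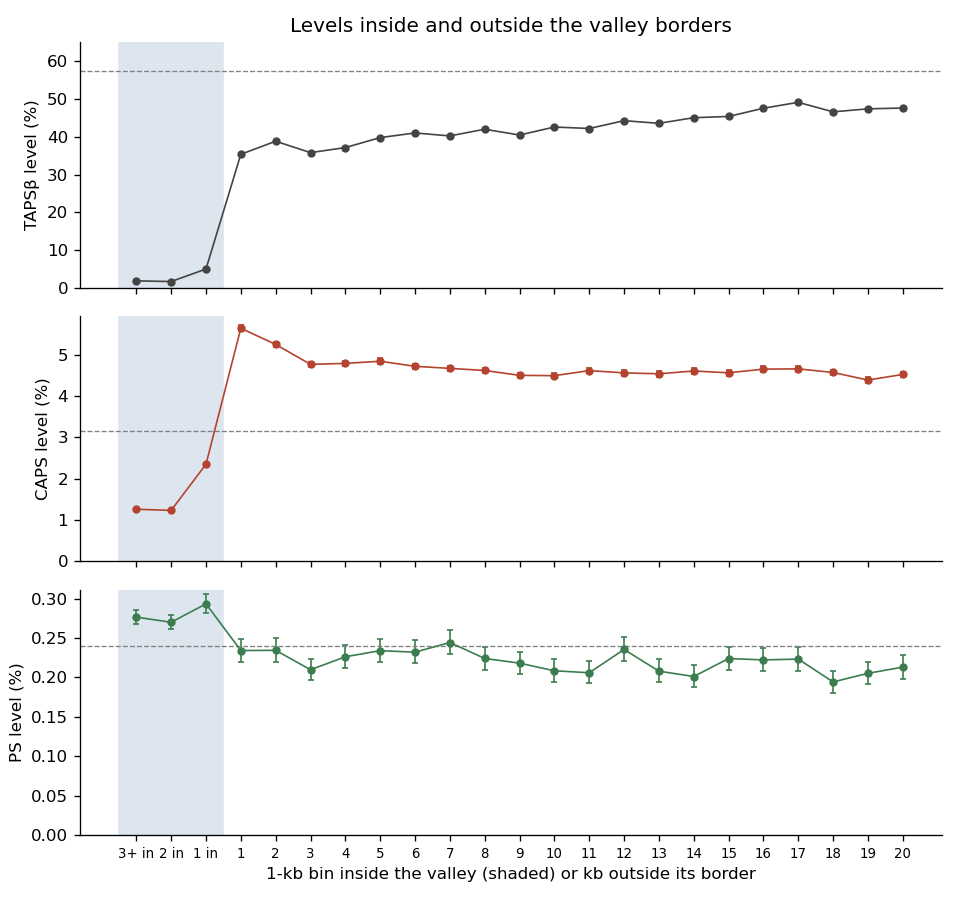
TAPSβ, CAPS and PS levels (%, vertical axes from 0) in 1-kb bins inside the valleys (shaded, by their position from the border) and in the 20 kb outside, pooled over all valleys, with 95% exact binomial bars and a dashed line at the level of all autosomal bins. CAPS climbs from 1.26% in the interior to 5.65% in the first kb outside and stays at 4.39% or more to 20 kb, while PS is slightly higher inside.

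The direction was nearly the same in every valley. CAPS was higher outside than inside in 876 of the 883 valleys, and in 794 (89.9%) the interval outside lay wholly above the interval inside, against a background of 41.6% over all runs of low bins and 40.3% over runs of 1 to 4 low bins. A valley had a median of 3109 CAPS base calls inside and 2190 outside, and the part of depth in these shares was not tested. The 7 valleys with a lower level outside included those at Tead1, a DNA-binding partner of YAP, and Tcfap2a, an AP-2 transcription factor. TAPSβ outside was 11.03% and 7.64% in these 2 valleys and ranged over all 7 from 7.64% to 76.0%, the latter at a valley of chromosome 5 with CAPS at 2.06% inside and 1.06% outside. In each of the 7 the CAPS intervals inside and outside overlapped.

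**Figure D4:**
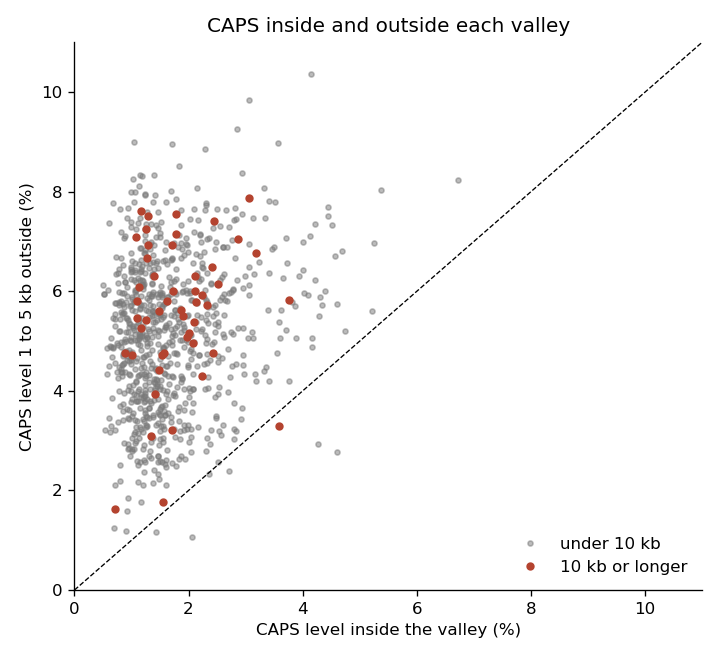
CAPS level 1 to 5 kb outside (vertical axis, %) against the CAPS level inside (horizontal axis, %), 1 point per valley, with red points for valleys of 10 kb or longer and a dashed line of equality. All but 7 of the 883 points lie above the line.

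The valleys with the highest CAPS level inside, among those with 1000 or more CAPS calls, were at Jdp2, an AP-1 family factor, with 6.72% (5.47 to 8.15%), and at Sulf2, a heparan sulfate sulfatase, with 5.37% (4.33 to 6.56%). Gene-free valleys of chromosomes 5 and 15 followed with 5.25% (3.99 to 6.77%) and 5.22% (4.05 to 6.62%), then Rai14, an actin-binding protein, with 4.74% (3.60 to 6.11%). These intervals overlapped, so the order is not resolved. All 5 were 5 kb long, and their TAPSβ levels, between 5.82 and 12.5%, were above the median valley at 2.42%. The Sulf2 valley among them held no gene start, and the other Sulf2 valley, which held it, was at 0.681% (0.437 to 1.01%). The lowest were at Csnk1a1, a casein kinase, with 0.499% (0.291 to 0.797%), at Brd2, a bromodomain protein, with 0.525% (0.366 to 0.730%), and at Syncrip, an RNA-binding protein, with 0.526% (0.301 to 0.854%). These 3 intervals overlapped too, and each of them held 0.72%. Their densities were between 34.8 and 55.4 CpGs per kb.

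Outside, Cdk6, a kinase of the G1 phase, had the highest CAPS level, 10.4% (9.19 to 11.6%). PS was 7.42% in the same bins and 3.10% inside this valley, and 28 of its 582 cytosines were at 20% or more in PS. Its reads per cytosine were 14.2 in CAPS against 8.65 over all valley bins. Without the cytosines at 20% PS or more, CAPS was 4.15% outside and 1.78% inside. The next were a 5-kb valley in Trim71, an RNA-binding ubiquitin ligase, with 9.85% (8.49 to 11.3%), Rbpms2, an RNA-binding protein, with 9.26% (7.73 to 10.99%), the valley of Gm10655 and Tle3, a Groucho corepressor, with 8.99% (7.77 to 10.3%), and Igsf3, an immunoglobulin-family membrane protein, with 8.97% (7.86 to 10.2%). These intervals overlapped. Trim71 held 3 valleys, of 7, 5 and 12 kb.

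CAPS outside ran from 2.16% to 5.72% over the gene lists with a valley, and differences between lists were not tested. The valleys of pluripotency genes stood at 5.72% (5.47 to 5.97%) outside and 1.45% inside, those of homeobox genes outside the Hox clusters at 3.71% (3.57 to 3.85%) and 1.43%, and those of cytosolic ribosomal protein genes at 4.29% (4.11 to 4.48%) and 1.23%. The 5 valleys of histone genes were lowest on both counts, with 2.16% (1.90 to 2.44%) outside and 0.834% inside. TAPSβ outside was 31.5%, 32.1%, 39.95% and 24.1% and the median valley length was 8, 6, 5 and 6 kb, in the same order. The part of either in the CAPS levels was not tested. Among the lists of developmental regulators, CAPS outside ran from 3.05% at Pax2 to 5.44% (5.10 to 5.79%) at Zic, Gli and Sall genes. The last interval and that of T-box and Gata genes, 5.34% (4.69 to 6.05%), overlapped that of the pluripotency genes. So did that of developmental bHLH genes, 5.27% (4.34 to 6.33%), which is the Hes1 valley alone. Sall4, Tbx3 and Sox2 are each in a family list and in the pluripotency list, so these lists share some of their reads. Over all valleys the CAPS level outside was 5.06%.

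By gene content, CAPS inside was 1.34% (1.33 to 1.36%) where a coding gene record starts. It was 1.97% (1.93 to 2.01%) in valleys across a gene without the start of its record, and 2.13% (2.08 to 2.18%) in valleys without a coding gene. The ratio of the last to the first was 1.59 (1.55 to 1.63). TAPSβ rose in the same order, from 2.18% to 3.43% and 3.76%. Of the valleys without the start of a coding gene record, 72 held the start of another transcript of a coding gene, so the middle class is not free of starts. By CpG density, CAPS inside fell from 2.60% (2.53 to 2.66%) in valleys with under 15 CpGs per kb to 1.28% (1.26 to 1.30%) in those with 45 or more. Outside it was 5.63% and 4.33% for the same classes. By length the levels inside were close, 1.51% (1.49 to 1.53%) at 5 kb and 1.65% (1.60 to 1.70%) at 10 kb or more, while outside they were 4.94% (4.90 to 4.98%) and 5.58% (5.45 to 5.72%). At valleys with 1 coding start, CAPS outside was 5.18% on the side of the gene and 4.64% upstream, a ratio of 1.12 (1.10 to 1.14).

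The shorter runs are the regions most like the valleys. Runs of 1 to 4 low bins had a CAPS level of 1.88% inside, and the valleys were at 0.810 (0.802 to 0.818) of that. Most of these runs are of 1 or 2 bins and thus made of border bins; runs of 3 and 4 low bins had 1.45% and 1.501%, beside the 1.52% of the valleys. At equal classes of TAPSβ level and number of cytosines, the valleys were at 0.903 (0.894 to 0.911) of the level of the shorter runs. In bins with 64 or more cytosines, CAPS was 1.02% (1.01 to 1.03%) in valleys and 1.30% (1.29 to 1.30%) in shorter runs. The ratio of valleys to shorter runs was between 0.733 and 0.792 in the 4 classes of 8 or more cytosines, but in bins with under 8 it was 1.13 (0.959 to 1.32), from 3.62% and 3.22%, an interval that holds 1. These classes are of cytosine number alone. In each of the 4 classes TAPSβ was also lower in the valleys, as with 1.39% against 2.47% at 64 or more cytosines. The 5 kb outside shorter runs had a CAPS level of 4.53%, and the valleys' 5 kb was 1.12 times (1.11 to 1.12) that.

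CAPS varied with the TAPSβ level of a bin, so the bins outside were also set against all other bins of the same class of TAPSβ level, in steps of 5 percentage points, and of cytosine number. They had 1.14 times (1.13 to 1.15) the CAPS level of such bins, with ratios from 1.06 on chromosome 17 to 1.26 on chromosome 3. In the first kb outside the ratio was 1.04 (1.02 to 1.05), and at 2 to 5 kb it lay between 1.16 and 1.19. In that first kb, 5.65% was observed where other bins of like TAPSβ level and CpG number had 5.44%. The ratio was 1.19 (1.18 to 1.19) at 16 to 20 kb from a valley as well, and 1.09 (1.09 to 1.10) in the 5 kb outside shorter runs, so a higher CAPS level at like TAPSβ extended beyond the first 5 kb and was also found at shorter runs. By broad TAPSβ classes, bins outside valleys and all other bins had 5.76% and 5.62% CAPS from 15 to 30% TAPSβ, 6.97% and 6.04% from 30 to 45%, 6.11% and 4.45% from 45 to 60%, 4.34% and 2.96% from 60 to 75%, and 3.09% and 2.20% at 75% or more. In bins that touch a coding gene the matched ratio was 1.11 (1.10 to 1.12), and in bins that touch none it was 1.18 (1.16 to 1.19).

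**Figure D5:**
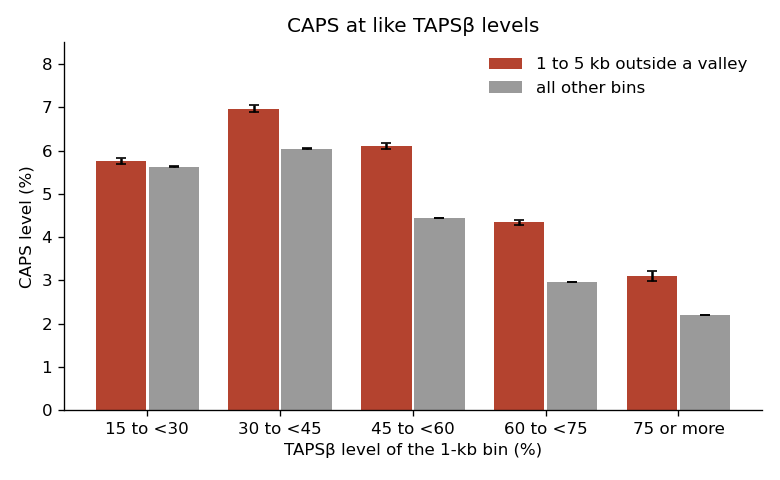
CAPS level (%, vertical axis from 0) in 1-kb bins 1 to 5 kb outside valleys (red) and in all other autosomal bins outside valleys (grey), by the TAPSβ level of the bin (horizontal axis, %), with 95% exact binomial bars. The red bar is higher in each class. As a ratio the difference is least from 15 to 30% TAPSβ (5.76% against 5.62%) and most from 60 to 75% (4.34% against 2.96%).

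At single cytosines, CAPS was called where a one-sided exact binomial test against 0.72% gave a Benjamini-Hochberg adjusted p under 0.05 over all cytosines with 5 or more reads. Inside valleys 1287 of 287136 tested cytosines were called, 0.448%, against 1.64% of all cytosines. Adjusted only over the cytosines with a modified read, the shares were 1.87% inside and 5.51% of all cytosines. The share was 1.04% in the outermost bins and 0.258% in bins 3 or more from a border, and outside the borders it was 3.69% within 5 kb and 4.16% in the first kb. Shorter runs had 0.783%. The same test on the pooled reads of 1-kb bins called 2264 of 5434 valley bins, 41.7%, against 42.2% of all bins, a share close to the background. The median reads per bin, 382 in valleys and 141 over all bins, differed, and the part of this depth in the shares was not tested. In the first kb outside, 89.3% of bins were called at a median of 206 reads, and 54.4% in shorter runs at 427.

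PS inside the valleys was 0.278% (0.273 to 0.284%) and 1 to 5 kb outside 0.228% (0.221 to 0.234%), a ratio of 1.22 (1.18 to 1.27) in the opposite direction to CAPS. It was higher inside on 18 of 19 autosomes. In valleys of 10 kb or more the difference was not resolved, with PS at 0.286% (0.267 to 0.306%) inside and 0.279% (0.251 to 0.310%) outside. Set against other bins of like TAPSβ level and cytosine number, as for CAPS, the bins outside had 0.843 times (0.819 to 0.867) their PS level. By broad TAPSβ classes alone, this PS ratio lay between 0.697 and 0.909 from 15 to 75% TAPSβ. At 75% TAPSβ or more it was 1.16 (1.01 to 1.33), in the other direction. The rate taken for unmodified cytosines in PS is 0.27%, between the levels inside and outside. In the paper the PS conversion was lower on CpG-methylated lambda DNA than on unmodified DNA, and slightly higher on a synthetic 5mC control. TAPSβ was 2.52% inside and 37.3% outside, and whether PS has the same background at both was not tested. Shorter runs had 0.281%, and at like TAPSβ level and cytosine number the valleys were at 1.00 (0.981 to 1.02) of them, an interval that holds 1. Single valleys had a median of 0.263%; the interval lay above 0.27% in 29 (3.28%) against 2.4% of all runs of low bins and below it in 12 (1.36%) against 0.449%, and 9 valleys had no modified PS read. Valleys had a median of 3418 PS calls and runs of 1 to 4 low bins 615, and the part of this depth in these shares was not tested. Of 313110 cytosines tested inside, 62 were called in PS, 0.0198%, against 0.0791% of all cytosines, and of 5436 valley bins 17 were called, 0.313%, against 0.68% of all bins. The highest levels were those of the Cdk6 valley, 3.10% (2.75 to 3.48%), and of gene-free valleys of chromosome 5, 1.44% (0.927 to 2.14%), and chromosome 17, 0.866% (0.448 to 1.51%). Without cytosines at 20% PS or more these were 0.851%, 0.185% and 0.725%.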

How the data were processed

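TAPSβ, CAPS and PS were each sequenced in 1 library of E14 mESC gDNA. Per the submitters' processing notes, reads were trimmed with Trim Galore 0.3.1, mapped with BWA 0.7.12 to mm9 and freed of duplicates with Picard 2.3.0. The files deposited by the authors give raw counts of modified and of unmodified reads at every listed CpG cytosine, without normalization, and the fraction that is modified, which only served to check these counts. Modified and total reads were summed over cytosines in 1-kb bins, with a median depth of 13, 9 and 9 reads per cytosine. Genes came from GENCODE M1, a gene's start being the 5′ end of its record, and sequences from the NCBIM37 genome. CAPS and PS calls used one-sided exact binomial tests against 0.0072 and 0.0027, the false-positive rates of the study's methods, with Benjamini-Hochberg adjustment. Valley finding and calling were tested on simulated data. The simulated valleys had sharp borders, so this test cannot show how graded borders are placed.

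The valley rule, the gene lists and the tests were chosen with earlier results of these data known. Named were the 10 longest valleys (11 with ties), the 5 highest and 3 lowest in CAPS inside (1000 or more calls), the 5 highest in CAPS outside (500 or more), the 3 highest in PS inside, and up to 4 genes per list from the longest valleys. The pluripotency genes beyond the first 4 and the other valleys of Trim71, Esrrb and Sulf2 were named after their values were seen. So were the gene-free valley near Sox2, Tead1 and Tcfap2a. Chromosomes X and Y were left out of the valleys. SciPy 1.17.1, NumPy 2.4.6 and pandas 2.3.3 under Python 3.11.15 were used, with Matplotlib 3.10.9 for figures.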

Additional observations from a re-analysis of the deposited data

Results flagged for a closer look

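Chromosome X was outside the valley rule and thus outside the comparisons. The rule found 39 valleys there. CAPS was 5.32% in the 5 kb outside them and 1.35% inside, a ratio of 3.95, and this value outside was flagged as a signal in data that no comparison used. PS was 0.273% inside and 0.317% outside, a ratio of inside to outside of 0.861, whereas the ratio on the autosomes was 1.22. The differences between chromosome X and the autosomes were not tested.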

How the results depend on the processing

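The CAPS ratios stayed above 1 in 21 of 21 alternative values. The PS ratio was above 1 in 11 of 11, but in valleys of 10 kb or more the PS intervals inside and outside overlapped. In all, 79 of 111 alternative values stayed within the error of the value reported or, for counts, within 1.5 times. With low bins under 10%, there were 532 valleys, holding 1.87% of coding gene starts, with CAPS at 1.30% inside and 5.01% outside, a ratio of 3.85 and a matched ratio of 1.13, and with PS at 0.241% outside and a PS ratio of 1.18. Under 20%, CAPS was 1.73% inside and 5.12% outside, with ratios of 2.96 and, matched, 1.16. Averaging single cytosines gave 1.48% and 5.18% and a ratio of 3.49, and bins shifted by 500 bp gave 1.55% inside and a ratio of 3.25. Leaving out cytosines at 20% PS or more put PS at 0.259% inside and 0.202% outside, with a ratio of 1.28. With 10 or more low bins in a row, there were 48 valleys, with 5 pluripotency genes and 0.140% of coding gene starts, CAPS at 1.67% inside and 5.54% outside, a matched ratio of 1.19, and PS at 0.286% inside and 0.283% outside, a ratio of 1.01. Without the Cdk6 valley PS was 0.271% inside and 0.219% outside. Adjusting over cytosines with a modified read only, a smaller number of tests, called 1.87% of valley cytosines and 5.51% of all cytosines in CAPS. The causes of the other changes were not tested. The alternatives for gene starts, for PS outside and without the Cdk6 valley were chosen after seeing the data. With 1 library per method, no replicate could be left out, and no paired analysis was possible because no method had a replicate. At a median of 9 CAPS and PS reads, single cytosines cannot resolve levels of a few percent.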
